A study of Nasonia vitripennis with 15 samples.

Results

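Hsp83 (NV11936) and Chordc1 (NV16801) are a chaperone and its partner protein. Each had 1 transcript in the counts, so that they made up 2 of the 26279 transcripts of 13999 genes measured in the testes of the parasitoid wasp Nasonia vitripennis. Both genes were chosen by their NV numbers and for their levels at 36 °C against 25 °C at 10 h and at 24 h, which are therefore given as a description with no test. Hsp83 is the name used in the study (LOC100117412 in RefSeq), and Chordc1 is the RefSeq symbol. The study is about genes of testis function, and its libraries hold RNA from testes dissected during meiosis. The 15 libraries fall into 5 groups of 3 pools, lettered A to C, and all are of strain AsymC. The groups were a control at 0 h, whose labels give no temperature, pools labelled 25 at 10 h and at 24 h, and pools labelled 36 at 10 h and at 24 h, here read as °C. The pools at 0 h and 10 h came from white nymphs and those at 24 h from white nymphs with red eyes. Time and stage thus cannot be told apart where 24 h pools are compared with earlier ones. A pool held 60 testes by the labels and 100 to 120 by the methods, and neither says how long before dissection the pools were held at 36 °C. The 0 h control is placed beside the pools at 25 °C below.

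Hsp83 is the insect form of Hsp90, a dimer that uses ATP to hold kinases, receptors and other client proteins in a form ready for activation. In the fruit fly, Hsp83 is transcribed in unstressed cells, including the germ line, and its transcript rises after a heat shock. Chordc1 carries CHORD zinc-binding domains and binds Hsp90 in mammals, and its fruit fly ortholog, morgana, is needed for a normal number of centrosomes. Small heat shock proteins bind unfolding proteins without ATP and are among the genes most strongly induced by heat in insects.

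The total count was 1749769 to 7154421 per library (median 3177175). Of the testis markers, klhl10, cut up, cyclin B, tektin-1 and lebercilin had counts in every library, TTLL3B and Adlip were listed at 0 in all of them, and bol had no row. Pool B at 10 h and 36 °C stood apart from its group, with a mean Pearson r of 0.916 with pools A and C, against 0.973 with the 3 pools at 24 h and 36 °C. The summed level of the testis markers in it was 8416 CPM, against 5430 and 5100 CPM in pools A and C. This lay within the 7807 to 9059 CPM of the 24 h pools at 36 °C. That of cuticle protein transcripts was 783 CPM against 184 and 169 CPM. Levels in CPM are counts relative to the TMM-adjusted size of the library, except for these marker sums, which are relative to its total count. Pool A at 24 h and 25 °C held 9787 CPM of cuticle protein transcripts, against 561 and 655 CPM in pools B and C. Values of Hsp83, Chordc1 and the chaperones that passed are given also without these pools. Over the whole marker lists, the sum of 13 testis transcripts, with TTLL3B and Adlip at 0, overlapped between the temperatures at 10 h and at 24 h. So did that of 60 cuticle protein transcripts. For the testis sum at 10 h, pool B alone made this overlap. Pools A and C at 36 °C (5430 and 5100 CPM) lay below all 3 pools at 25 °C (6740 to 7286 CPM). The testis sum was at 4406 to 5428 CPM at 0 h and at 8774 to 10510 CPM at 24 h and 25 °C. Most of its counts were of cut up (306465 over all libraries), followed by klhl10 (64704). The study names both among its upregulated genes between the stages of these libraries. The sum therefore cannot separate testis content from stage. The sum of 4 transcripts of hexamerins, storage proteins of the fat body, did not overlap, at 59.0 to 75.2 CPM at 25 °C against 15.5 to 50.5 CPM at 36 °C at 10 h and at 66.3 to 68.1 against 22.3 to 29.6 CPM at 24 h. Groups did not overlap, in either direction, for 18.3% of all single transcripts at 10 h and 44.7% at 24 h. The lowest hexamerin sum, 15.5 CPM, was in pool C at 10 h and 36 °C, a library of 1808085 counts, and rests on few reads. In pooled tissue, fewer cells of a type and less RNA per cell cannot be told apart.

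Hsp83 transcripts were abundant in every library. The raw counts in pools A, B and C were 16707, 27109 and 7084 at 0 h. They were 14473, 9237 and 5738 at 10 h and 6666, 5138 and 6327 at 24 h at 25 °C. At 36 °C, they were 21076, 12106 and 5767 at 10 h and 8798, 3611 and 3652 at 24 h. Hsp83 thus took between 0.137% and 0.409% of the counts of a library, and its mean of 2669 CPM over the 15 libraries lay at percentile 99.7 of the 8550 transcripts that passed the filter on low counts. After scaling, Hsp83 was at 3557, 3736 and 3432 CPM in the 0 h pools, at 3425, 2941 and 3029 CPM at 10 h and at 2382, 2551 and 2701 CPM at 24 h at 25 °C. The 0 h pools held the highest levels, and the 3 groups did not overlap. At 36 °C, it was at 2995, 1793 and 2848 CPM at 10 h and at 1750, 1402 and 1494 CPM at 24 h. The 24 h pools at 36 °C were the lowest of all, and pool B at 10 h lay just above them.

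**Figure D1:**
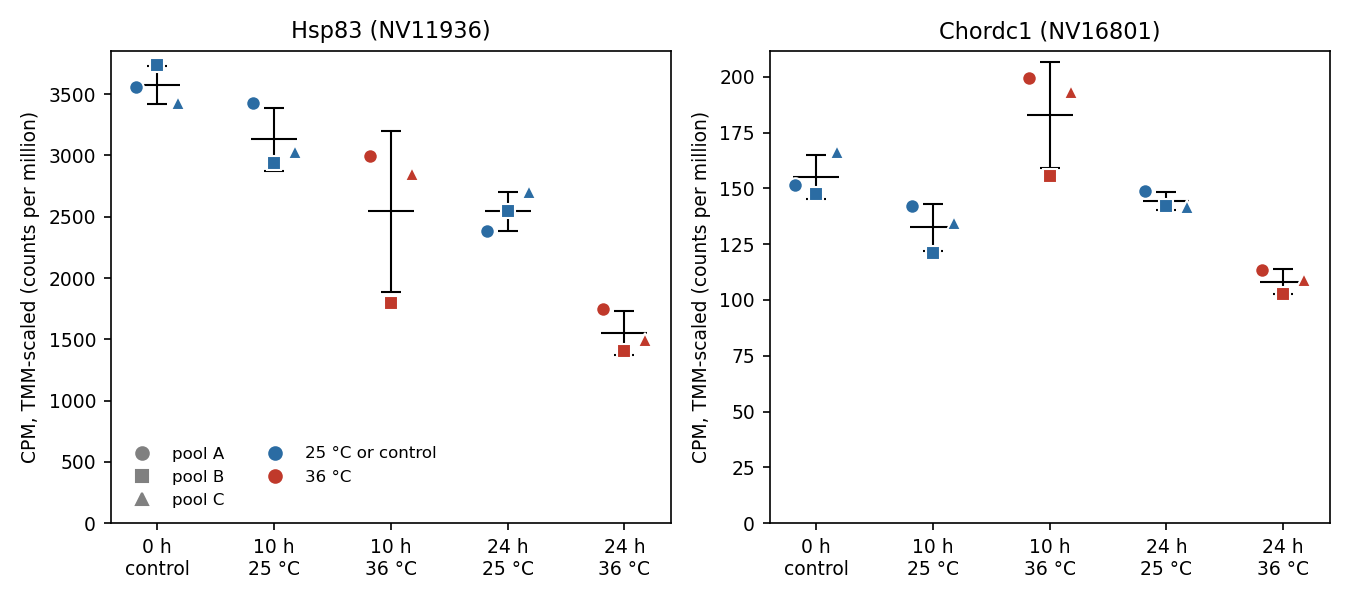
Level of Hsp83 (left) and Chordc1 (right) in CPM after TMM scaling, one point per library, with the group mean and SD (n = 3) in black. Hsp83 is highest in the 0 h control and lowest at 24 h and 36 °C, whereas Chordc1 is highest at 10 h and 36 °C (155.5 to 199.5 CPM) and lowest at 24 h and 36 °C (102.5 to 113.4 CPM).

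By group mean, the order of Hsp83 levels was 0 h (3575 ± 153 CPM, SD, n = 3), 10 h at 25 °C (3132 ± 258), 24 h at 25 °C (2545 ± 159) with 10 h at 36 °C (2545 ± 655), and 24 h at 36 °C (1549 ± 180). The means of 24 h at 25 °C and 10 h at 36 °C were the same, and the pools of the second lay on both sides of those of the first. The mean at 24 h and 36 °C was 43.3% of the 0 h mean. Without pool B, the mean at 10 h and 36 °C was 2922 CPM (2848 and 2995 CPM), which placed it between the groups of 10 h and 24 h at 25 °C, overlapping the former.

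At 25 °C, the decline of Hsp83 from 0 h was not past the test in edgeR. From 0 h to 24 h its log2 fold change was -0.47 (standard error, SE, 0.24, 95% interval -0.99 to 0.06, adjusted p = 0.148 by the quasi-likelihood test of edgeR). This comparison is no independent evidence, since the study names Hsp83 among its downregulated genes between the stages of these libraries. The study made its calls with a DESeq2 pipeline at an adjusted p under 0.05. The log2 fold change was -0.20 (SE 0.21, -0.67 to 0.26, adjusted p = 0.628) from 0 h to 10 h and -0.30 (SE 0.19, -0.71 to 0.10, adjusted p = 0.344) from 10 h to 24 h. Without pool A at 24 h, the values were -0.39 from 0 h to 24 h (edgeR adjusted p = 0.301) and -0.23 from 10 h to 24 h (0.55). In each of the 3 comparisons all pools of the later group were below all those of the earlier one. That was also so, in one direction or the other, for 52.2% of all transcripts tested from 0 h to 24 h, 26.1% from 0 h to 10 h and 30.1% from 10 h to 24 h. The 0 h to 24 h difference passed in DESeq2 (log2 fold change -0.49, adjusted p = 0.0138). It passed also with total counts in place of TMM (log2 fold change -0.87, edgeR adjusted p = 0.0061), a scaling that moved the median of all transcripts by -0.41. Relative to that median, Hsp83 was then at -0.41.

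Chordc1 was measured with fewer counts. The raw counts in pools A, B and C were 712, 1071 and 343 at 0 h. They were 600, 380 and 255 at 10 h and 417, 286 and 332 at 24 h at 25 °C. At 36 °C, they were 1404, 1050 and 391 at 10 h and 570, 264 and 266 at 24 h. The lowest of these, 255, has a counting error of 6.26% of its value, against 1.66% for the lowest Hsp83 count, 3611. The mean level of Chordc1 over the 15 libraries was 144.6 CPM, at percentile 82.8 of the same transcripts.

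Chordc1 was at 151.6, 147.6 and 166.2 CPM in the 0 h pools, at 142.0, 121.0 and 134.6 CPM at 10 h and at 149.0, 142.0 and 141.7 CPM at 24 h at 25 °C. These 9 libraries spanned 121.0 to 166.2 CPM, and the 0 h pools overlapped those at 24 h but not those at 10 h. Groups did not overlap, in either direction, for 26.1% of all transcripts tested from 0 h to 10 h. At 36 °C, it was at 199.5, 155.5 and 193.1 CPM at 10 h and at 113.4, 102.5 and 108.9 CPM at 24 h. The highest and the lowest group of this gene were thus both at 36 °C, and neither overlapped the pools at 25 °C of the same time. By group mean, the order was 10 h at 36 °C (182.7 ± 23.7 CPM, SD, n = 3), 0 h (155.1 ± 9.8), 24 h at 25 °C (144.2 ± 4.1), 10 h at 25 °C (132.5 ± 10.7) and 24 h at 36 °C (108.2 ± 5.5). Pool B brought the first of these into the range of the second, and without it the mean at 10 h and 36 °C was 196.3 CPM, above every 0 h pool. The neighbours in the middle of the order, 0 h with 24 h and 24 h with 10 h at 25 °C, overlapped.

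In the tests at 25 °C, Chordc1 did not pass either. Its log2 fold change was -0.08 (SE 0.15, 95% interval -0.40 to 0.24, edgeR adjusted p = 0.702) from 0 h to 24 h and -0.24 (SE 0.15, -0.57 to 0.09, adjusted p = 0.385) from 0 h to 10 h. From 10 h to 24 h it was 0.12 (SE 0.15, -0.19 to 0.43, adjusted p = 0.655). Without pool A at 24 h, Chordc1 was at -0.07 from 0 h to 24 h (edgeR adjusted p = 0.797) and at 0.12 from 10 h to 24 h (0.766). The 10 h to 24 h value turned to -0.10 (edgeR adjusted p = 0.694) with total counts, which moved the median of all transcripts by -0.22. With total counts the 0 h to 24 h difference was -0.49 (edgeR adjusted p = 0.0329), or -0.03 relative to the median of all transcripts. With TMM scaling, 0 of 2 genes passed in edgeR in any of the 3 comparisons, and 0 of 2 had an unadjusted p under 0.05. In all, 36.9% of 7809 transcripts passed from 0 h to 24 h, 3.75% of 8206 from 0 h to 10 h and 4.49% of 7573 from 10 h to 24 h. An unadjusted p under 0.05 in edgeR was held by 3652, 1756 and 1884 of them, in the same order.

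At 36 °C the genes parted at 10 h and both were low at 24 h. At 10 h, Chordc1 was 1.40-fold higher at 36 °C than at 25 °C (log2 fold change 0.48, SE 0.14), whereas Hsp83 was 1.21-fold lower (-0.28, SE 0.26). All 3 Chordc1 pools at 36 °C lay above all 3 at 25 °C, and for Hsp83 the pools overlapped. Among the 8351 transcripts in this fit, whose groups did not overlap for 18.3%, the value of Chordc1 was at percentile 84.0 and that of Hsp83 at percentile 27.6. Pool B carried most of the lower Hsp83 mean. Without it, the log2 fold change of Hsp83 was -0.09 (SE 0.17), and that of Chordc1 was 0.58 (SE 0.12). Pool B had higher testis and cuticle marker sums, and pools A and C at 36 °C had a lower testis sum than the pools at 25 °C. The hexamerin sum was lower at 36 °C. The part of these marker levels in the values of Hsp83 and Chordc1 was not tested.

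At 24 h, Hsp83 was 1.61-fold lower at 36 °C than at 25 °C (log2 fold change -0.69, SE 0.26), and Chordc1 was 1.31-fold lower (-0.39, SE 0.14). Neither gene's pools overlapped between the temperatures, as held for 44.7% of the transcripts in the fit. The value of Hsp83 was at percentile 14.1 and that of Chordc1 at percentile 27.7. Without pool A at 25 °C, the pool rich in cuticle protein transcripts, the values were -0.71 and -0.34. The hexamerin sum was lower at 36 °C here too, and its part in these values was not tested. Total counts moved the median of all transcripts by 0.18 here, and the values were then -0.52 for Hsp83 and -0.21 for Chordc1, or -0.66 and -0.35 relative to that median.

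The heat effect at 24 h minus that at 10 h was -0.87 on the log2 scale for Chordc1 (SE 0.19) and -0.41 for Hsp83 (SE 0.36). Among the 8351 transcripts in the fit, this difference was at percentile 5.48 for Chordc1 and 20.6 for Hsp83. Chordc1 thus changed direction between the times. The mean of Hsp83 was lower at 36 °C on both occasions, but at 10 h its pools overlapped. Without pool B its log2 fold change there was -0.09 (SE 0.17). Leaving out any 1 of the 12 libraries gave -0.97 to -0.76 for Chordc1 and -0.61 to -0.24 for Hsp83.

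The ratio of the genes within a library does not depend on scaling. There were 4.26, 3.95 and 4.84 Chordc1 counts per 100 Hsp83 counts in the 0 h pools and 4.15, 4.11 and 4.44 at 10 h at 25 °C. At 24 h and 25 °C, there were 6.26, 5.57 and 5.25. The 24 h pools lay above all 6 earlier ones. At 36 °C, there were 6.66, 8.67 and 6.78 at 10 h and 6.48, 7.31 and 7.28 at 24 h. Every library at 36 °C had a higher ratio than every other library, but narrowly. Closest were the A pools at 24 h, with 6.48 at 36 °C and 6.26 at 25 °C. They held 570 and 417 Chordc1 counts, and the gap is no larger than the counting error of such counts. How often other pairs of transcripts part in this way was not counted. The ratios of both groups at 36 °C overlapped, although both genes were lower at 24 h than at 10 h. Since the ratio combines the values that chose the genes, no test was made. Across the 15 libraries, the log2 CPM of the genes had a Pearson r of 0.62 and a Spearman rho of 0.51, a description over points that share groups.

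**Figure D2:**
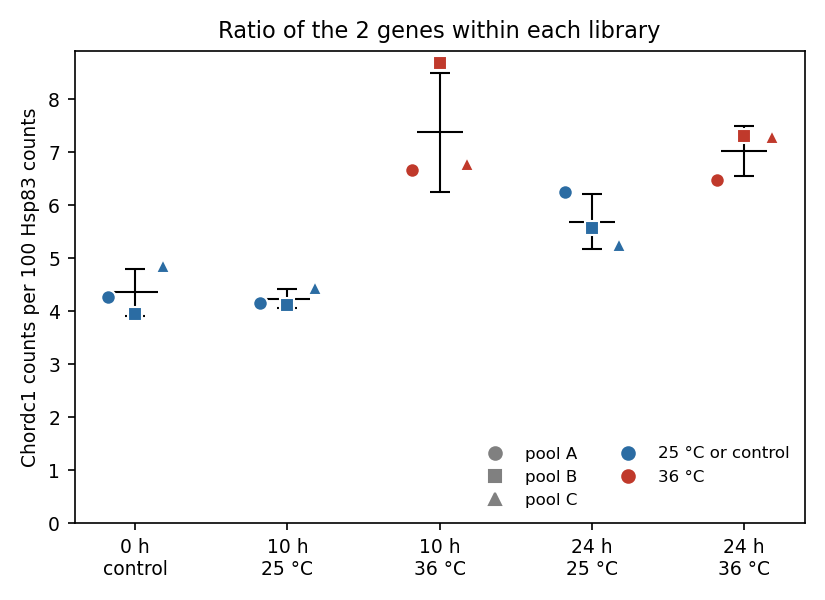
Chordc1 counts per 100 Hsp83 counts in each library, with the group mean and SD (n = 3) in black. The 6 libraries at 36 °C lie between 6.48 and 8.67 and the other 9 between 3.95 and 6.26.

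A list of 16 other chaperone genes was made, 14 of them with rows in the counts. It was not complete, since it was drawn up by NV numbers and a few symbols. Chaperones with only a LOC symbol outside those numbers, and Cctgamma (NV18778), were not in it. The list held 5 small heat shock proteins, J-domain proteins that pass clients to Hsp70, the Hsp70 cognate HSC70 as its only Hsp70, and the Hsp110 Hsc70Cb. It held also Cct7, a subunit of the chaperonin that folds actin and tubulin. The heat shock factor (NV23059) and DnaJ-1 (NV11306) had no row under these numbers. Of 20 list transcripts tested, 4 were higher at 36 °C and 0 were lower at 10 h, and again 4 were higher and 0 lower at 24 h. DESeq2 gave 5 higher and 0 lower at each time, the fifth being HSC70. In edgeR the calls at both times belonged to the same 4 transcripts, each of a small heat shock protein gene. Over all 8351 transcripts, 3.62% passed at 10 h (2.24% higher and 1.38% lower) and 14.3% at 24 h (8.37% higher and 5.9% lower). Leaving out 1 pool moved these 24 h calls from 699 higher and 493 lower to between 290 and 518 higher and between 145 and 364 lower, lowest without pool A at 36 °C, and total counts gave 241 lower. The median log2 fold change of the list was 0.01 at 10 h and 0.22 at 24 h, against 0.00 and -0.04 over all transcripts.

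NV13802 rose most. It was at 38.6, 30.9 and 35.4 CPM at 10 h and 25 °C and at 917.5, 553.5 and 662.7 CPM at 36 °C, with a log2 fold change of 4.37 (SE 0.30, edgeR adjusted p = 2.58e-06). At 24 h it went from 60.4, 29.8 and 30.3 CPM to 681.8, 503.6 and 606.1 CPM (3.91, SE 0.29, adjusted p = 4.31e-06). Its groups lay far apart at both times. NV13801 was at 241 to 416 CPM at 10 h and 25 °C and at 4186, 1683 and 3821 CPM at 36 °C (log2 fold change 3.24, edgeR adjusted p = 0.000286), and at 24 h at 182 to 241 CPM and at 2285, 1710 and 1747 CPM (3.23, adjusted p = 0.000153). NV13798 was at 108 to 126 CPM at 10 h and 25 °C and at 1685, 509.5 and 1612 CPM at 36 °C (3.45, adjusted p = 0.000483), and at 24 h at 91.4 to 145.8 CPM and at 822.5, 503.2 and 472.7 CPM (2.34, adjusted p = 0.00216). The transcript of NV13797 with most counts rose from 262 to 289 CPM to 2472, 1345 and 2064 CPM at 10 h (2.85, edgeR adjusted p = 7.4e-05) and from 218 to 252 CPM to 2122, 1379 and 1642 CPM at 24 h (2.88, adjusted p = 3.23e-05). In all 4, pool B at 10 h was the lowest of the 3 pools at 36 °C, and its levels lay in or near the range of the 24 h pools. Without it, the log2 fold changes at 10 h were 4.51 (NV13802), 3.54 (NV13801), 3.82 (NV13798) and 3.06 (NV13797), and without pool A at 24 h and 25 °C those at 24 h were 4.36, 3.17, 2.53 and 2.95, all of which passed. The lower hexamerin sum at 36 °C moved with these rises at both times, and its part in them was not tested.

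**Figure D3:**
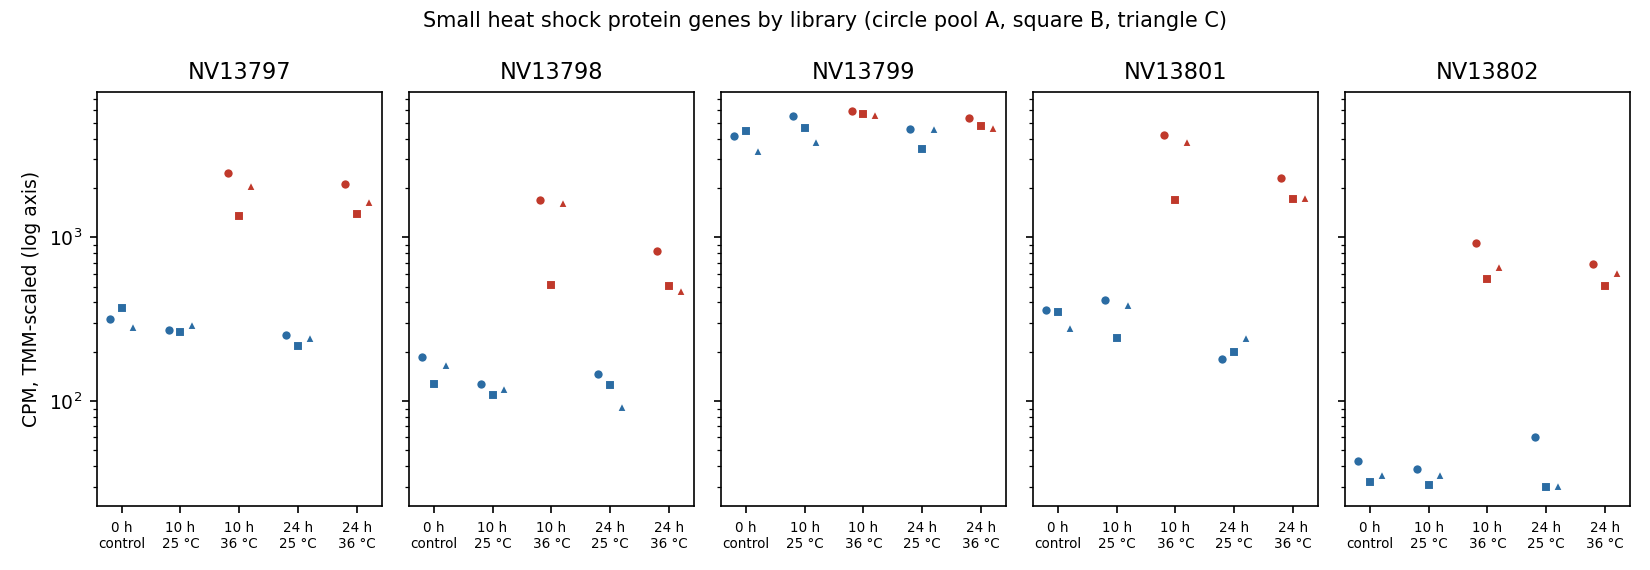
Level of the 5 small heat shock protein genes by library in CPM after TMM scaling, on a log axis, with blue for 25 °C or control and red for 36 °C. For 4 genes all pools at 36 °C lie above all others, whereas NV13799 lies between 3364 and 5912 CPM throughout.

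The fifth gene of this group, NV13799, was at 3364 to 5912 CPM in the 15 libraries and did not pass (log2 fold change 0.32 and 0.25 at 10 h and 24 h, edgeR adjusted p = 0.566 and 0.573), nor did the other 2 transcripts of NV13797. The pools of NV13799 at 36 °C lay above those at 25 °C at both times, without overlap. Groups did not overlap, in either direction, for 18.3% of all transcripts at 10 h and 44.7% at 24 h. The labels and methods do not say how reads that map to several near-identical copies were counted, and levels of single genes of this group are uncertain to that extent. HSC70 (NV11212), a constitutive Hsp70, was at 3622 to 4418 CPM at 10 h and 25 °C and at 5300 to 6354 CPM at 36 °C. These pools did not overlap, as held for 18.3% of all transcripts at 10 h, and the difference did not pass in edgeR at 10 h (0.57, SE 0.26, edgeR adjusted p = 0.253) or at 24 h (0.40, adjusted p = 0.322), whereas it passed in DESeq2 (adjusted p = 0.00161 and 0.0224). In all, 6 of 20 list transcripts lay above without overlap and 0 below at 10 h, against 18.3% of all transcripts in either direction. At 24 h, 7 lay above and 3 below, against 44.7% of all transcripts in either direction, a share close to that of the list. The remaining list genes had log2 fold changes of -0.58 to 0.78 at 10 h and -0.79 to 0.96 at 24 h, and none passed. They were Hsc70Cb (NV14064), Cct7 (NV14157), and the J-domain genes Csp (NV10682), P58IPK (NV13479), Tpr2 (NV15535), CG40178 (NV15555), mrj (NV15618) and CG3061 (NV15676), named by their fruit fly orthologs. Without pool B at 10 h, 6 list transcripts were higher and 2 lower, with HSC70 (0.63, edgeR adjusted p = 0.0153) and 1 transcript of Tpr2 (0.98, adjusted p = 0.0306) added to the higher ones and 2 transcripts of mrj the lower ones. Tpr2 carries repeats that bind Hsp70 and Hsp90 in mammals. All transcripts called at 10 h then numbered 1037 higher and 1253 lower, against 187 and 115 with pool B.

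**Figure D4:**
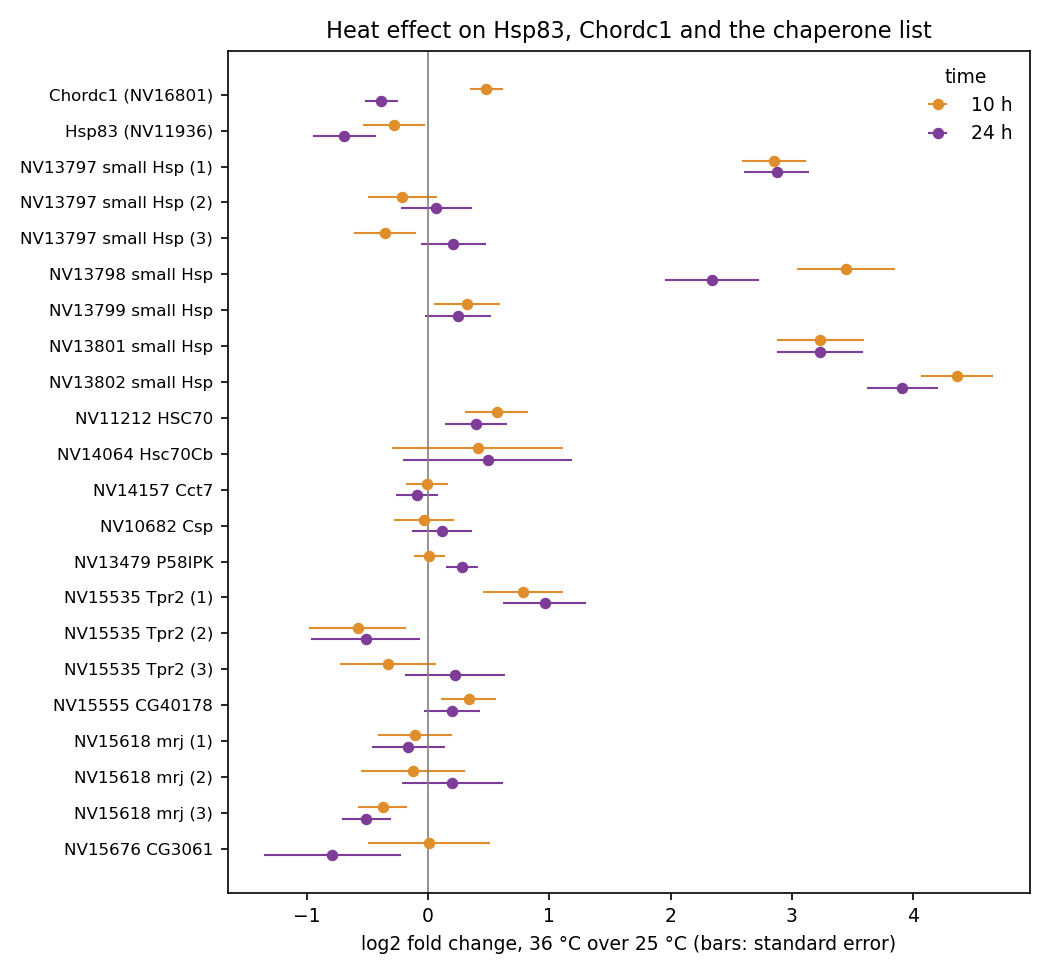
Log2 fold change of 36 °C over 25 °C at 10 h (orange) and at 24 h (purple), with SE, for Hsp83, Chordc1 and the 20 tested list transcripts, numbered where a gene has several. Chordc1 lies at 0.48 and -0.39 and Hsp83 at -0.28 and -0.69, and the 4 transcripts that passed lie between 2.34 and 4.37.

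Between the 2 times, no list transcript passed for a changed heat effect in edgeR (0 of 20, with 0 at an unadjusted p under 0.05 and 0 in DESeq2), and neither did any of the 8351 transcripts, of which 654 had an unadjusted p under 0.05. NV13798 had the largest of these differences in the list (-1.11, SE 0.53, adjusted p = 0.635).

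At 25 °C, 3 of 18 list transcripts were higher and 3 lower at 24 h than at 0 h, against 19.9% and 17% of all transcripts. The higher ones were 3 transcripts of mrj (log2 fold change 1.44, 1.26 and 0.98), a J-domain gene. The second of these did not pass without pool A (edgeR adjusted p = 0.154) or C (0.073) at 24 h, without pool A (0.108) or C (0.124) at 0 h, with total counts (0.119) or in 1 fit of 15 libraries (0.0564). The lower ones were 1 transcript of Tpr2 (-1.13, edgeR adjusted p = 0.0239), CG40178 (-0.63, adjusted p = 0.0469) and NV13801 (-0.65, adjusted p = 0.0156). None of the 3 lower transcripts passed without pool A or without pool B at 24 h (edgeR adjusted p = 0.0628 to 0.185), nor Tpr2 without pool C (0.071), CG40178 without pool B (0.0739) or C (0.14) and NV13801 without pool A (0.052) at 0 h. Of 19 list transcripts, 0 passed from 0 h to 10 h in edgeR and 0 in DESeq2, against 3.4% higher and 0.353% lower of all transcripts in edgeR. An unadjusted p under 0.05 in edgeR was held by 4 of the 19 and by 1756 of all 8206 transcripts. Of 18, 0 passed from 10 h to 24 h in edgeR, and DESeq2 gave 1 higher and 1 lower. Over all transcripts, edgeR gave 3.22% higher and 1.27% lower. Here 3 of the 18 and 1884 of all 7573 transcripts had an unadjusted p under 0.05 in edgeR. With the pool letter as a replicate block, 2 transcripts of mrj were higher and 3 list transcripts (of Tpr2, CG40178 and NV13798) were lower from 0 h to 10 h, and 988 of all transcripts were higher and 729 lower, against 279 and 29 without the block.

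By their pattern over the 15 libraries, the transcripts most like Hsp83 were those of NV12316 (Pearson r of log2 CPM 0.97), NV13432 (0.97), NV15057 (0.97), NV13083 (0.96) and LOC100679339 (0.96). Only LOC100679339 was also among the 5 highest by Spearman rho (0.98). Those most like Chordc1 were NV18586 (0.90), NV10228 (0.87), NV11078 (0.87), NV17317 (0.87) and Cctgamma (NV18778; 0.86), and only NV18586 was among the 5 highest by rho (0.86). Chordc1 ranked 1485 of 8549 for Hsp83, and Hsp83 ranked 658 for Chordc1. The libraries share groups and depth, and these values are a description.

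In the order of the RefSeq annotation, Hsp83 stands next to NV11937 and NV11938 on one side and a long noncoding RNA gene and Mir9a on the other. Chordc1 stands between Ovca2 with NV16800 and NV16802 with NV16803, and no annotated neighbour overlaps either gene. Of 7 transcripts of these neighbours tested, 0 passed at 10 h or at 24 h in edgeR and 0 in DESeq2, against 3.62% and 14.3% of all transcripts in edgeR. At each time 2 of the 7 had an unadjusted p under 0.05 in edgeR. Of all 8351 transcripts, 1565 had one at 10 h and 2443 at 24 h. The value closest to the threshold was that of Ovca2, which is adjacent to Chordc1, at 10 h (log2 fold change 0.74, SE 0.22, edgeR adjusted p = 0.0739).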

How the data were processed

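Both genes and the chaperone list were chosen with earlier results of these data known. The list holds heat shock genes of the study's table of fruit fly orthologs, by NV number, and 2 genes found by a fixed set of chaperone symbols. Product names were not searched, so that the list is only a part of the chaperones. Paired reads from poly-A RNA (a TruSeq kit, stranded by the labels) were mapped by the authors to the genome build Nvit_2.1. The submitters' processing notes name TopHat2 2.1.0 and featureCounts 1.6.3, whereas the methods name htseq-count for the counts per RefSeq transcript. The authors deposited raw counts in 6 tables, in which 39 of 39 repeated count columns were identical, and 54 columns of normalized values were not used. The deposited fold changes and p-values hold the authors' own comparisons and were not used. Of the transcripts, 8884 had no count.

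Here edgeR 4.0.16 (R 4.3.3) fitted robust quasi-likelihood models to the counts after filterByExpr and TMM scaling, on 6 libraries for each comparison at 25 °C (the 0 h control included) and on 12 libraries in 1 fit for 36 °C against 25 °C. The threshold was 0.05 after Benjamini-Hochberg adjustment over all transcripts tested. Standard errors were taken from the log2 fold change and its F statistic, and 95% intervals use the degrees of freedom of that test. Likeness was Pearson r of log2 CPM (prior count 2). Named genes are both chosen genes, list members that passed in a heat comparison or came from the table of orthologs, and the 5 transcripts most like each gene. Alternatives were DESeq2 1.42.0, DESeq2 size factors, total counts, no filter on low counts, a replicate block, 1 fit of 15 libraries, counts summed per gene, and each pool left out. Code was tested on simulated counts. Pools of a group differed beyond sampling noise, and nothing says that they are separate broods, so that p-values concern these pools only. The spread that edgeR uses for a transcript draws also on other transcripts. From 0 h to 24 h, the SD of log2 CPM within groups was 0.08 for Hsp83, against an SE of 0.24. For Chordc1 these were 0.07 and 0.15. Symbols and neighbours are those of a RefSeq table (Nvit_psr_1.1, 11605 gene IDs matched), another build than that of the counts, so that no coordinates are given. Figures were drawn with matplotlib 3.10.9 under Python 3.11.15.

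Pools with the same letter deviated together at 0 h and 10 h at 25 °C (r 0.14 to 0.43) and at 10 h at both temperatures (0.21 to 0.54), by the data and not by the labels, so that the paired values stand beside those results where a call changed. They did not in the other comparisons (-0.40 to 0.30).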

Additional observations from a re-analysis of the deposited data

Results flagged for a closer look

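The heat effect on Chordc1 had opposite directions at 10 h and at 24 h in every pool. All 3 pools at 36 °C lay above all 3 pools at 25 °C at 10 h (155.5 to 199.5 against 121.0 to 142.0 CPM) and below all 3 at 24 h (102.5 to 113.4 against 141.7 to 149.0 CPM). Groups did not overlap, in either direction, for 18.3% of all transcripts at 10 h and 44.7% at 24 h. The share of transcripts that part in opposite directions at both times was not counted. For Chordc1, the difference of the effects was -0.87 on the log2 scale, at percentile 5.48 of 8351 transcripts. It was not tested, since the gene was chosen for these contrasts. Without pool B at 10 h and 36 °C, which stands apart from its group, it was -0.97.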

How the results depend on the processing

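With total counts in place of TMM, the log2 fold change from 0 h to 24 h was -0.87 for Hsp83 and -0.49 for Chordc1 (both then past the threshold), that of Chordc1 from 10 h to 24 h was -0.10, and the heat effect at 24 h was -0.52 for Hsp83 and -0.21 for Chordc1, with a difference between heat effects of -0.74 for Chordc1. In DESeq2 the 0 h to 24 h value of Hsp83 was -0.49 and passed. The replicate block changed no call of either gene. In the list, the replicate block gave 5 lower transcripts from 0 h to 24 h, 2 higher and 3 lower from 0 h to 10 h, and 1 higher and 1 lower from 10 h to 24 h. Total counts gave 7 lower from 0 h to 24 h and 1 lower from 10 h to 24 h. Counts summed per gene gave 1 higher gene from 0 h to 24 h, no filter gave 1 lower transcript from 10 h to 24 h, and DESeq2 gave 1 higher and 1 lower there. Leaving out 1 pool gave 0 to 3 lower from 0 h to 24 h, 0 to 1 higher and 0 to 1 lower from 0 h to 10 h and from 10 h to 24 h, and 0 to 2 lower for heat at 10 h. The causes were not tested. The 4 small heat shock protein transcripts passed at both times under all 12 alternatives with values per transcript.

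Over all transcripts, leaving out 1 pool gave 1213 to 1787 higher and 835 to 1636 lower from 0 h to 24 h, 0 to 697 and 0 to 354 from 0 h to 10 h, 0 to 488 and 0 to 292 from 10 h to 24 h, 79 to 1037 and 30 to 1253 for heat at 10 h, and 290 to 518 and 145 to 364 for heat at 24 h. Total counts gave 2833 lower from 0 h to 24 h, the replicate block 988 higher and 729 lower from 0 h to 10 h, and no filter 608 and 385 from 10 h to 24 h. In 1 fit of 15 libraries, 0 passed from 0 h to 10 h or from 10 h to 24 h. With 3 pools a group, the 95% interval of Hsp83 from 0 h to 24 h spans -0.99 to 0.06 on the log2 scale.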
